A study of Mus musculus with 10 samples.

Results

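The transcripts described here are 37 genes of the interferon response and of antigen presentation, chosen by gene symbol from a list and read in mouse liver after DEHP, a phthalate plasticizer. All 37 listed symbols were found among the 16874 genes of the table, and all 37 passed the filter on low values, as did 11242 genes in all. The list holds 4 signalling and transcription factors, 4 sensors of nucleic acids, 14 antiviral effectors, 6 genes of ISG15 conjugation or of the PARP-DTX3L group, 6 interferon-inducible GTPases and 3 genes of antigen presentation.

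The study sequenced liver RNA of male C57BL/6 mice in all of which Pparg, encoding the nuclear receptor PPAR gamma, was knocked out in a liver-specific way. The DEHP group, 5 libraries, came from mice given 2500 mg/kg bw DEHP by gavage, and the CMC group, 5 libraries, from mice given 0.5% CMC by gavage. The labels give 12 mice of 20 to 30 g per group, name no mouse for a library and give neither age, treatment length, nor the promoter that drove the recombination. Every value below is thus from Pparg-targeted liver, with mice that lack the knockout not analysed here. The p-values measure only the spread between these libraries.

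Interferons bind receptors whose kinases activate STAT proteins. Complexes that hold STAT2 and IRF9 bind the interferon-stimulated response element (ISRE), and the gamma-activated site (GAS) is the other main element of the response. The induced genes include RNA sensors, effectors that block viral replication, GTPases that attack vacuoles of pathogens, and the machinery that loads peptides onto MHC class I. In liver, both hepatocytes and the resident macrophages, Kupffer cells, respond to interferon.

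Promoter windows are shown first because members of such a group are known through their shared elements. RefSeq promoters of GRCm38.p6, from 250 bases before to 50 bases after the start, were matched by gene identifier for 28 of the 37 genes. The ISRE core was searched as GAAANNGAAA and the GAS core as TTCNNNGAA, on both strands, and matches of a motif may overlap each other. At least 1 ISRE core stood in the windows of 15 of the 28 genes (53.6%), against 3.99% of all 27025 genes with a promoter in the table and 3.44% of 32851 promoters. A GAS core stood in the windows of 7 of the 28 genes (25.0%), against 9.55% of all genes and 8.3% of all promoters. The windows below hold the 150 bases before the start, written 5′ to 3′ on the strand of the gene, with matches in capitals. Rsad2 (chr12:26456453-26456602, minus strand) had the lowest fold change of the 37 genes, and its ISRE core begins 120 bases before the start. Ifit1 (chr19:34640739-34640888, plus strand) and Isg15 (chr4:156200819-156200968, minus strand) are textbook targets of ISRE-binding complexes, and the 3 ISRE cores of Isg15 overlap. Irf1 (chr11:53769864-53770013, plus strand) had the highest fold change of the 37 genes and carries a GAS core 90 bases before the start.
Rsad2: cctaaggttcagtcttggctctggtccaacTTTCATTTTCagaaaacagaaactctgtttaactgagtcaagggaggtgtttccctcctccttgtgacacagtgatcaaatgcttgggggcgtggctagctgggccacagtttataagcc
Ifit1: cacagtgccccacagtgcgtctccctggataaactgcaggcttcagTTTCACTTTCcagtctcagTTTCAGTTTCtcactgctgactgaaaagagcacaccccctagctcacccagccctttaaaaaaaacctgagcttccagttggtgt
Isg15: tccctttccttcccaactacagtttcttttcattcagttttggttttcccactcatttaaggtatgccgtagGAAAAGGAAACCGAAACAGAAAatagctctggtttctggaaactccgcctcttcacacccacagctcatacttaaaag
Irf1: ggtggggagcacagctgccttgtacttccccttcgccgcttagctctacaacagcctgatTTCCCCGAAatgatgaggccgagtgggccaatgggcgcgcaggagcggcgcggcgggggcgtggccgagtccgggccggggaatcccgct

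The other 3 genes past the test threshold, Tap1 (chr17:34187406-34187555, plus strand), Dtx3l (chr16:35939028-35939177, minus strand) and Trim25 (chr11:88999253-88999402, plus strand), held neither core in the searched window. These letters are shown for comparison with the set above, and the absence of a match says only that the cores are not written in this stretch.
Tap1: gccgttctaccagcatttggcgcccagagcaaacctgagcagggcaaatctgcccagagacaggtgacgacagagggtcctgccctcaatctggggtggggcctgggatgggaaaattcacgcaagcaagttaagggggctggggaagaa
Dtx3l: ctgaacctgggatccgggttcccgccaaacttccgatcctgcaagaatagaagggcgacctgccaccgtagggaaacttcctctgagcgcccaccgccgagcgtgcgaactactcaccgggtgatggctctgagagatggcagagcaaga
Trim25: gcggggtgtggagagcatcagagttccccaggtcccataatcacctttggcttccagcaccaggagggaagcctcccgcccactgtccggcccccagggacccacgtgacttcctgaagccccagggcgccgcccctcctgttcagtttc

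Over all 37 genes, few differed between DEHP and CMC liver by more than the spread between libraries. Tap1, which pumps peptides into the endoplasmic reticulum for MHC class I, and Dtx3l, a ubiquitin ligase that pairs with PARP9, rose after DEHP. Rsad2, which encodes the antiviral enzyme viperin, and Trim25, a ubiquitin ligase that acts on the RNA sensor RIG-I, fell. The other 33 genes did not pass the threshold of 0.05 on the adjusted p of limma, which was fitted to log2(FPKM + 0.5) over all 11242 genes with Benjamini-Hochberg adjustment. The 4 calls are 10.8% of the 37 genes, against 11.5% of all genes tested, so the share of called genes was near the background. The 2 genes higher after DEHP stand beside a background of 9.12% (1025 genes), and the 2 genes lower beside a background of 2.4% (270 genes).

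The median log2 fold change of the 37 genes, DEHP minus CMC, was -0.15, against 0.06 over all genes tested. Of the 37 genes, 13 had a fold change above 0 (35.1%), against 59.5% of all genes tested. At a filter of 2 FPKM, 13 of the 27 genes tested were above 0, with a median of -0.08, against 0.07 over all genes tested. The low genes dropped by that filter all had a fold change below 0. The median lay below 0 under each of the 19 alternative settings run, between -0.23 without both CMC library 2 and DEHP library 5 and -0.06 without CMC library 4, with 27 of the genes tested at a filter of 2 FPKM and 37 in every other setting. An unadjusted p under 0.05 was found for 10 of the 37 genes, against 2827 of 11242 genes tested. The values of the groups did not overlap for 4 of the 37 genes, Rsad2 and Stat2 lower and Dtx3l and Tap2 higher after DEHP, against a background of 10.7% (1203 genes). In all genes tested 79.2% of calls were on the higher side, against 58.9% with median-of-ratios scaling and 52.8% with quantile normalization, and under both of these scalings none of the 37 genes was called higher and 3 were called lower, Rsad2, Trim25 and Stat2. Trim25, Tap1 and Dtx3l were not called with no filter (adjusted p = 0.0562, 0.0684 and 0.0706), with limma lacking trend and robust variance (0.0553, 0.0621 and 0.0621), or without both CMC library 2 and DEHP library 5 (0.0768, 0.152 and 0.0541).

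**Figure D1:**
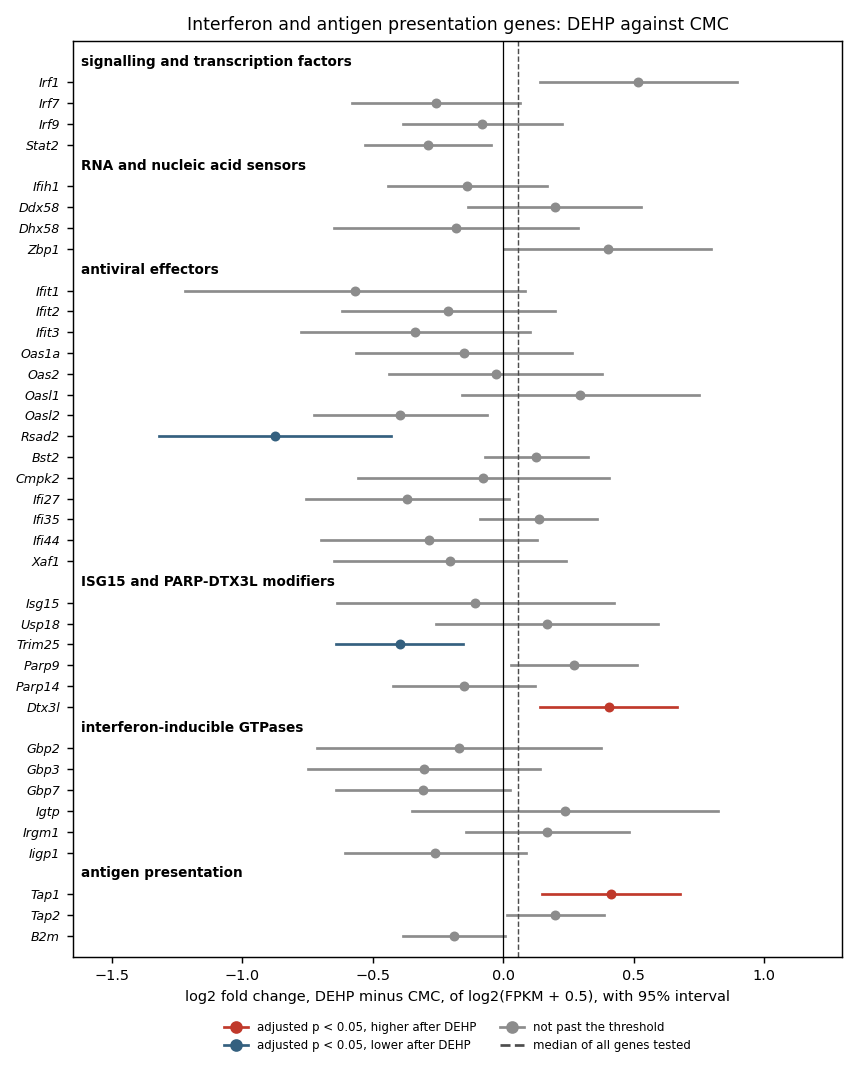
Log2 fold change, DEHP minus CMC, of each of the 37 genes on the log2(FPKM + 0.5) scale, with its 95% interval from limma, in blocks by role. Tap1 and Dtx3l (red) were called higher and Rsad2 and Trim25 (blue) lower, while the dashed line marks the median of all genes tested, 0.06.

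Levels per transcript length spanned a wide range. The mean over the 10 libraries was below 1 FPKM for 3 genes (Ifit2, Ifi44 and Oas2), from 1 to 10 FPKM for 19 genes and over 10 FPKM for 15 genes. B2m led with a mean of 2056 FPKM, followed by Bst2 with 295 FPKM, Ifi27 with 132 FPKM and Iigp1 with 69.1 FPKM. Depth was estimated from the steps of low values at 6750000 to 7090000 fragments per library, so that Ifit1 rested on about 9 to 67 fragments per library, Rsad2 on about 15 to 100 and B2m on about 9913 to 14568. These depths limit the precision of the low genes, and the estimate covers counting error only. In bulk liver, fewer cells of a type and less RNA per cell cannot be told apart.

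Library-level facts bear on several results below. On principal components of all tested genes, CMC library 2 stood apart on component 2, which held 14.5% of the variance, and DEHP library 5 on component 3, which held 10.6%. Hepatocyte markers summed to 40170 ± 2317 FPKM in DEHP and 57400 ± 6290 FPKM in CMC libraries (SD, n = 5 each, two-sided exact permutation p = 0.00794, the smallest that 252 regroupings give up to rounding, and 0.0794 adjusted over 10 marker lists), with 3 of 6 genes (Alb, Apoa1 and Ttr) called lower. Those 3 genes made up nearly all of the sum. Hnf4a, Cps1 and Tat, not called, averaged 138.6, 440.8 and 835.6 FPKM in DEHP, against 163.5, 480.7 and 860.2 FPKM in CMC libraries. Kupffer cell markers summed to 236 to 288 FPKM in DEHP and 187 to 262 FPKM in CMC libraries, with 0 of 11 genes called (exact permutation p = 0.0952, adjusted p = 0.429). For the T cell, NK cell, B cell, dendritic cell, neutrophil and monocyte, endothelial, stellate and cholangiocyte lists the adjusted p was 0.429 to 0.897, and no marker of any list was at 0 in all 10 libraries. The part of hepatocyte or other cell markers in the results below was not tested. Pparg itself had 7.81, 5.5, 9.4, 7.79 and 7.04 FPKM in DEHP libraries 1 to 5, against 2.4, 4.56, 4.14, 2.72 and 5.9 FPKM in CMC libraries 1 to 5, and was called higher after DEHP (log2 fold change 0.89, SE 0.21, limma adjusted p = 0.0118). This value is over all its exons and checks nothing of the deletion.

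Among the signalling and transcription factors, none of the 4 genes passed the test, and the median log2 fold change was -0.17. Stat2, the STAT protein found mainly in the type I interferon pathway, had 9.63, 9.36, 9.84, 9.8 and 6.89 FPKM in DEHP libraries 1 to 5, against 10.97, 10.8, 9.88, 12.28 and 11.88 FPKM in CMC libraries 1 to 5. Every DEHP value lay below every CMC value, although DEHP library 3 and CMC library 3 were nearly equal, and DEHP library 5 lay far below the other 4 DEHP libraries. The log2 fold change of Stat2 was -0.29 (SE 0.11), with a limma adjusted p of 0.123. That p was 0.0432 with median-of-ratios scaling and 0.0325 with quantile normalization, and it was 0.207 without DEHP library 5.

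Irf9, the DNA-binding partner of STAT2, had 11.29, 11.55, 9.51, 8.83 and 13.04 FPKM in DEHP libraries 1 to 5, against 9.5, 8.87, 12.2, 14.09 and 13.15 FPKM in CMC libraries 1 to 5. The groups overlapped almost fully (log2 fold change -0.08, SE 0.14, limma adjusted p = 0.786). Irf7, the factor that amplifies type I interferon transcription, had 15.52, 16.3, 15.31, 18.84 and 25.06 FPKM in DEHP libraries 1 to 5, against 17.29, 18.67, 21.19, 26.96 and 24.75 FPKM in CMC libraries 1 to 5. DEHP library 5 reached the upper end of the CMC range, whereas DEHP libraries 1, 2 and 3 lay below all CMC libraries, and the log2 fold change was -0.26 (SE 0.15, limma adjusted p = 0.311).

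Irf1, a factor induced mainly by interferon gamma that drives antigen presentation genes, had the highest log2 fold change of the 37 genes but was not called. It had 12.39, 17.06, 13.6, 12.7 and 18.7 FPKM in DEHP libraries 1 to 5, against 6.76, 9.27, 11.14, 10.3 and 14.56 FPKM in CMC libraries 1 to 5. Only CMC library 5 reached into the DEHP range. The log2 fold change was 0.52 (SE 0.18, limma adjusted p = 0.0756), and without CMC library 5 the adjusted p was 0.0212.

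The 4 sensor genes gave no call, and their median log2 fold change was 0.03. Ddx58, which encodes the RNA sensor RIG-I, averaged 3.95 ± 0.486 FPKM in DEHP and 3.43 ± 0.857 FPKM in CMC libraries (SD, n = 5 each). Ifih1, the gene of the RNA sensor MDA5, averaged 3.64 ± 0.756 FPKM in DEHP and 4.01 ± 0.479 FPKM in CMC libraries. Dhx58, the gene of their regulator LGP2, averaged 3.45 ± 0.472 FPKM in DEHP and 4.20 ± 1.55 FPKM in CMC libraries. Zbp1, a sensor of Z-form nucleic acids, had the highest fold change of these 4 genes, with 7.12 ± 1.57 FPKM in DEHP and 5.35 ± 1.59 FPKM in CMC libraries (log2 fold change 0.40, SE 0.18, limma adjusted p = 0.195).

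Of the 14 antiviral effectors, 1 fell (7.14%), against 2.4% lower among all genes tested, and none rose, against 9.12% higher. The log2 fold change was below 0 for 11 and above 0 for 3 (21.4%), against 59.5% above 0 among all genes tested, and the median was -0.21. At a filter of 2 FPKM, 7 of these effectors were tested, 3 were above 0, none was called, and the median was -0.08. Rsad2 (chr12:26442743-26456452, GRCm38.p6) had 1.56, 1.16, 0.6, 1.38 and 1.19 FPKM in DEHP libraries 1 to 5, against 2.03, 3.1, 3.8, 2.2 and 1.85 FPKM in CMC libraries 1 to 5. The groups did not overlap, with DEHP library 3 lowest and CMC libraries 2 and 3 highest of their groups. Its mean was 1.18 ± 0.361 FPKM in DEHP and 2.60 ± 0.827 FPKM in CMC libraries (SD, n = 5 each), and the log2 fold change was -0.88 (SE 0.21, limma adjusted p = 0.0130). This call held when any of the 10 libraries was left out, with adjusted p between 0.0125 and 0.0352, and was lost without both CMC library 2 and DEHP library 5 (adjusted p = 0.0501). At a filter of 2 FPKM Rsad2 was not tested.

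Cmpk2, a mitochondrial nucleotide kinase, lies 12664 bases from Rsad2 on chromosome 12 and is usually induced with it. Its level was 2.94, 1.46, 1.59, 1.06 and 2.14 FPKM in DEHP libraries 1 to 5, against 2.07, 2.28, 2.23, 2.07 and 1.01 FPKM in CMC libraries 1 to 5. Apart from CMC library 5, the lowest of all, the CMC values lay inside the DEHP range, and the log2 fold change of -0.08 (SE 0.22, limma adjusted p = 0.883) was within the spread. The difference between the fold changes of these neighbours was not tested.

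The 3 Ifit genes, whose proteins bind viral RNA or the translation machinery, lay together on chromosome 19. Ifit1 had 2.38, 1.43, 0.49, 1.91 and 1.47 FPKM in DEHP libraries 1 to 5, against 2.7, 1.02, 3.65, 2.6 and 2.49 FPKM in CMC libraries 1 to 5. All CMC libraries but library 2 lay above all DEHP libraries, and DEHP library 3 was the lowest of the 10. The log2 fold change of Ifit1 was -0.57 (SE 0.30, limma adjusted p = 0.265), that of Ifit3 -0.34 (adjusted p = 0.335) and that of Ifit2 -0.21 (adjusted p = 0.540). Ifit3 has a near-identical copy, Ifit3b, 18547 bases away, and the sources used here do not say how reads were split between copies.

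Oas1a and Oas2 encode oligoadenylate synthetases, which activate the RNA-cutting enzyme RNase L, and Oasl1 and Oasl2 encode related proteins. Oasl2 averaged 1.03 ± 0.119 FPKM in DEHP and 1.53 ± 0.340 FPKM in CMC libraries (log2 fold change -0.39, SE 0.16, limma adjusted p = 0.125), and its adjusted p was 0.0493 without CMC library 2. Oasl1, which in mice restrains translation of Irf7, averaged 4.56 ± 0.738 FPKM in DEHP and 3.78 ± 1.43 FPKM in CMC libraries, with a log2 fold change of 0.30 (adjusted p = 0.422). Oas1a (1.69 ± 0.319 FPKM in DEHP and 1.99 ± 0.720 FPKM in CMC libraries) and Oas2 (0.768 ± 0.246 FPKM in DEHP and 0.792 ± 0.229 FPKM in CMC libraries) had log2 fold changes of -0.15 and -0.03, neither past the threshold.

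Bst2, the gene of tetherin, which holds budding virions at the cell surface, was the most abundant effector. It had 322.55, 289.17, 285.94, 278.46 and 362.19 FPKM in DEHP libraries 1 to 5, against 258.16, 276.45, 333.65, 263.9 and 275.44 FPKM in CMC libraries 1 to 5. Without CMC library 3, which stood far above the other 4 CMC libraries, every DEHP value exceeded every CMC value. The log2 fold change was 0.13 (SE 0.09, limma adjusted p = 0.430), and it was -0.00223 with quantile normalization.

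Ifi27, a small protein of mitochondrial and nuclear membranes, averaged 115 ± 23.7 FPKM in DEHP and 149 ± 32.8 FPKM in CMC libraries (log2 fold change -0.37, SE 0.18, limma adjusted p = 0.222). Without CMC library 2 its log2 fold change was -0.52 with an adjusted p of 0.0258, and without both CMC library 2 and DEHP library 5 it was -0.60 with an adjusted p of 0.0107. Xaf1, which promotes apoptosis, had 1, 0.99, 1.2, 1.62 and 2.02 FPKM in DEHP libraries 1 to 5, against 1.67, 1.28, 1.36, 2.76 and 1.25 FPKM in CMC libraries 1 to 5. CMC library 4 alone stood above the remaining values, and the log2 fold change was -0.20 (adjusted p = 0.599). Ifi35 averaged 25.0 ± 3.19 FPKM in DEHP and 22.7 ± 2.43 FPKM in CMC libraries, and Ifi44 averaged 0.624 ± 0.155 FPKM in DEHP and 0.890 ± 0.319 FPKM in CMC libraries, neither past the threshold (adjusted p = 0.459 and 0.395).

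**Figure D2:**
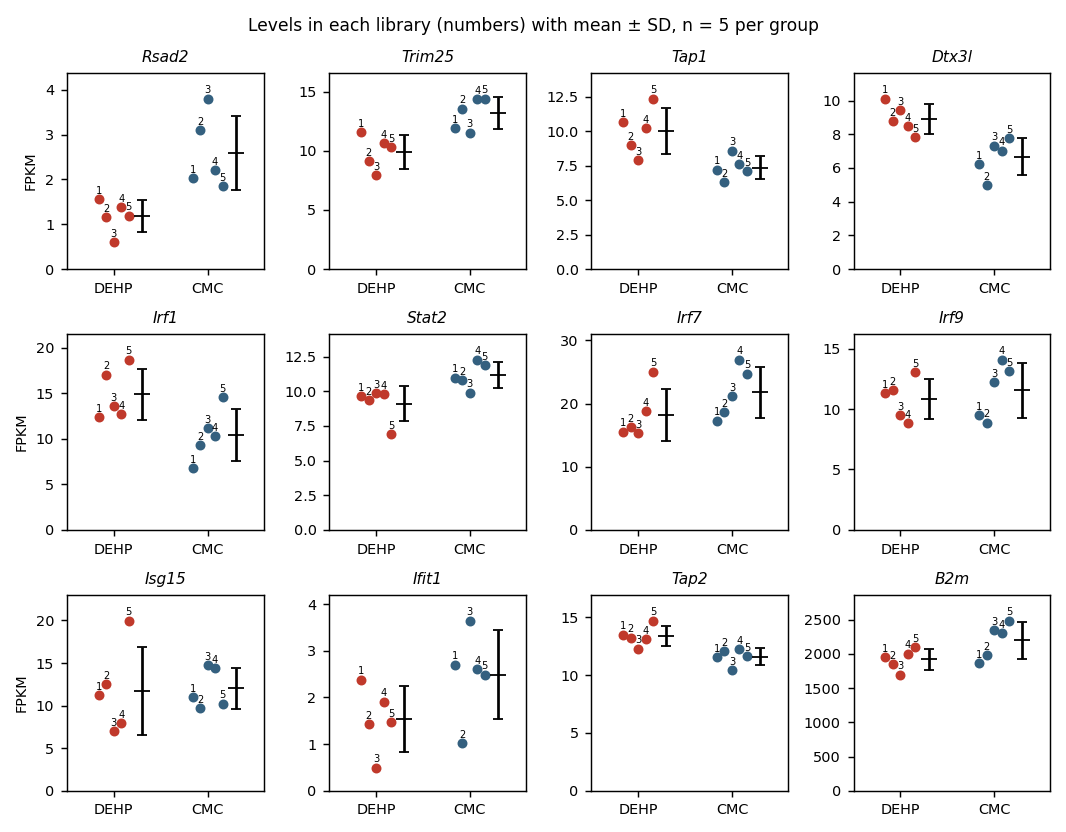
FPKM of 12 of the 37 genes in each library, numbered within its group, with the mean and SD of 5 libraries per group at the right of each cloud. DEHP values (red) lay below all CMC values (blue) for Rsad2 and Stat2 and above them for Dtx3l and Tap2, and DEHP library 5 lay far above the other DEHP libraries for Isg15 and far below them for Stat2.

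In the group of ISG15 conjugation and PARP-DTX3L genes, 1 of 6 rose and 1 fell, with a median log2 fold change of 0.03. The called share was 33.3%, against 11.5% of all genes tested, but in so small a group it rests on few genes. Trim25 (chr11:88999403-89020294) had 11.6, 9.11, 7.94, 10.67 and 10.3 FPKM in DEHP libraries 1 to 5, against 11.94, 13.56, 11.55, 14.39 and 14.41 FPKM in CMC libraries 1 to 5. Only DEHP library 1 and CMC library 3 overlapped. The mean was 9.92 ± 1.42 FPKM in DEHP and 13.2 ± 1.35 FPKM in CMC libraries (SD, n = 5 each), and the log2 fold change was -0.40 (SE 0.11, limma adjusted p = 0.0369). The call was lost when DEHP library 2, 3 or 5 was left out (adjusted p = 0.0760, 0.0904 and 0.0503) and when CMC library 2, 4 or 5 was left out (adjusted p = 0.0629, 0.0895 and 0.0849), while the fold change stayed between -0.45 and -0.32.

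Dtx3l (chr16:35926515-35939027) had 10.11, 8.78, 9.42, 8.48 and 7.82 FPKM in DEHP libraries 1 to 5, against 6.24, 4.99, 7.32, 7.03 and 7.76 FPKM in CMC libraries 1 to 5. The groups did not overlap, although DEHP library 5 and CMC library 5 nearly met. The log2 fold change was 0.40 (SE 0.12, limma adjusted p = 0.0481), with means of 8.92 ± 0.879 FPKM in DEHP and 6.67 ± 1.09 FPKM in CMC libraries (SD, n = 5 each). It was no longer called without DEHP library 1, 2, 3 or 4 (adjusted p = 0.118, 0.0758, 0.102 and 0.0706), without CMC library 1, 2, 3 or 4 (adjusted p = 0.0999, 0.0905, 0.0547 and 0.0701), or with median-of-ratios scaling (adjusted p = 0.111).

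Parp9, whose protein binds DTX3L, overlaps Dtx3l by 558 bases, and no source used here states the strand of counting, so reads of that stretch cannot be told apart. Parp9 had 12.11, 14.13, 12.32, 14.36 and 11.16 FPKM in DEHP libraries 1 to 5, against 10.24, 8.6, 12.16, 11.93 and 9.91 FPKM in CMC libraries 1 to 5. DEHP libraries 1 and 5 lay inside the CMC range and the other 3 above it, and the log2 fold change was 0.27 (SE 0.11, limma adjusted p = 0.148). Parp14, a mono-ADP-ribosyltransferase of the same family, had 2.81, 2.77, 2.87, 2.73 and 2.28 FPKM in DEHP libraries 1 to 5, against 2.58, 2.61, 3.36, 3.22 and 3.49 FPKM in CMC libraries 1 to 5. DEHP libraries 1 to 4 were tightly grouped with library 5 below them, and the log2 fold change was -0.15 (adjusted p = 0.512).

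Isg15, the ubiquitin-like modifier itself, had 11.2, 12.48, 6.98, 7.95 and 19.99 FPKM in DEHP libraries 1 to 5, against 11.01, 9.68, 14.72, 14.42 and 10.21 FPKM in CMC libraries 1 to 5. The DEHP libraries held both the lowest and the highest values of the 10, and the log2 fold change was -0.11 (SE 0.24, limma adjusted p = 0.843). Its sign turned positive without DEHP library 3 (0.0465) or library 4 (0.00255). Usp18, which removes ISG15 and dampens the interferon receptor, averaged 5.73 ± 1.14 FPKM in DEHP and 5.18 ± 1.63 FPKM in CMC libraries (adjusted p = 0.661).

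None of the 6 interferon-inducible GTPases was called, and their median log2 fold change was -0.21. At a filter of 2 FPKM only 3 of them were tested, with 2 above 0 and a median of 0.17. The guanylate-binding protein genes Gbp2, Gbp3 and Gbp7 had log2 fold changes of -0.17, -0.30 and -0.31 (limma adjusted p = 0.744, 0.398 and 0.239). Iigp1, an immunity-related GTPase, averaged 62.7 ± 12.0 FPKM in DEHP and 75.5 ± 15.2 FPKM in CMC libraries, and Irgm1, a regulator of that family, averaged 23.9 ± 3.13 FPKM in DEHP and 21.5 ± 5.51 FPKM in CMC libraries (adjusted p = 0.344 and 0.515). Igtp, of the same regulatory class, had 10.53, 18.21, 11.27, 8.77 and 25.49 FPKM in DEHP libraries 1 to 5, against 9.76, 8.96, 12.16, 15.78 and 12.38 FPKM in CMC libraries 1 to 5. DEHP libraries 2 and 5 were the highest of the 10, the other 3 DEHP libraries lay within or below the CMC range, and the log2 fold change was 0.24 (SE 0.27, adjusted p = 0.644). The members of these GTPase families are similar in sequence, so the split of reads between them is uncertain.

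Of the 3 antigen presentation genes, 1 rose (33.3%), against 9.12% higher among all genes tested, and none fell, with a median log2 fold change of 0.20. A share of 3 genes rests on few values. Tap1 (chr17:34187556-34197225) had 10.67, 9.01, 7.92, 10.21 and 12.36 FPKM in DEHP libraries 1 to 5, against 7.2, 6.32, 8.6, 7.61 and 7.12 FPKM in CMC libraries 1 to 5. DEHP library 3 alone lay below CMC library 3, the highest of the CMC group. The mean was 10.03 ± 1.69 FPKM in DEHP and 7.37 ± 0.831 FPKM in CMC libraries (SD, n = 5 each), and the log2 fold change was 0.41 (SE 0.12, limma adjusted p = 0.0454). The call was lost without DEHP library 1, 2, 4 or 5 (adjusted p = 0.102, 0.0503, 0.0859 and 0.0943), without CMC library 1, 2, 4 or 5 (adjusted p = 0.0867, 0.0909, 0.0733 and 0.0854), and with median-of-ratios scaling (adjusted p = 0.142).

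Tap2, the other subunit of the transporter, lies 7253 bases from Tap1. It had 13.5, 13.24, 12.29, 13.08 and 14.72 FPKM in DEHP libraries 1 to 5, against 11.53, 12.09, 10.4, 12.25 and 11.62 FPKM in CMC libraries 1 to 5. The groups did not overlap, but the log2 fold change was 0.20 (SE 0.09, limma adjusted p = 0.168). B2m, the light chain of MHC class I, had 1947.5, 1850.16, 1692.17, 2003.52 and 2095.02 FPKM in DEHP libraries 1 to 5, against 1861.59, 1978.56, 2346.84, 2301.12 and 2486.79 FPKM in CMC libraries 1 to 5. CMC libraries 3, 4 and 5 exceeded all DEHP libraries while CMC libraries 1 and 2 lay among them, and the log2 fold change was -0.19 (SE 0.09, adjusted p = 0.210). Kupffer cell markers, whose sum was 33.3 FPKM higher in DEHP than in CMC libraries (exact permutation adjusted p = 0.429), are given beside these values as markers of antigen-presenting cells. The dendritic cell and B cell marker sums differed by -0.326 and -0.608 FPKM, DEHP minus CMC (exact permutation adjusted p = 0.429 for both). Only 1 of 6 dendritic cell and 1 of 5 B cell markers passed the filter. The part of these cells in the Tap1 result was not tested.

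Some libraries were the highest or lowest of their group for many of the 37 genes. DEHP library 5 was the highest DEHP library for 21 of the 37 genes (56.8%), against 18.1% of all genes tested, and DEHP library 3 was the lowest for 19 (51.4%), against 12.0% of all genes tested. In the CMC group, library 2 was the lowest for 17 genes (45.9%), against 17.6% of all genes tested, and library 4 was the highest for 14 (37.8%), against 16.05% of all genes tested. CMC library 4 exceeded its group's mean on the log2 scale for 33 of the 37 genes. Relative to the mean of its own group, the median deviation of the 37 genes was 0.21 in DEHP library 5, -0.17 in DEHP library 3, -0.20 in CMC library 2 and 0.14 in CMC library 4 on the log2 scale, against medians over all genes tested of -0.06, 0.06, 0.06 and -0.000301. Genes of 1 library share its RNA, so these counts describe the libraries and carry no test.

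**Figure D3:**
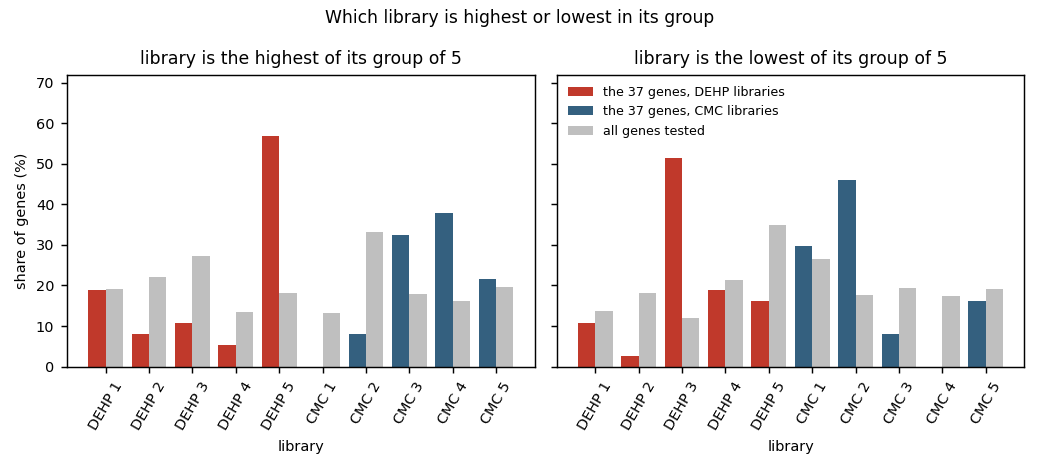
Share of the 37 genes (red, DEHP libraries, and blue, CMC libraries) and of all genes tested (grey) for which each library was the highest (left) or the lowest (right) of its group of 5. DEHP library 5 and CMC library 4 stand out on the left, and DEHP library 3 and CMC library 2 on the right.

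The library pattern was not uniform within the list. The 21 genes for which DEHP library 5 was the highest included Isg15, Igtp, Irf7, Irf9, Bst2, Tap1, Tap2 and B2m. The same library was the lowest of its group for 6 genes, Stat2, Parp14, Parp9, Dtx3l, Ifih1 and Iigp1. Marker sums of DEHP library 5 were the highest of its group for T cells (3.14 FPKM, against 1.08 to 2.60 FPKM in the other 4 DEHP libraries), B cells (1.98 FPKM, against 0.16 to 1.42 FPKM) and neutrophils and monocytes (18.8 FPKM, against 3.95 to 10.6 FPKM). The same library was also the highest of its group for hepatocyte markers (42820 FPKM, against 36540 to 41280 FPKM). For endothelial cells (57.0 FPKM, against 65.3 to 81.1 FPKM), stellate cells (39.1 FPKM, against 47.0 to 62.3 FPKM) and dendritic cells (1.96 FPKM, against 2.45 to 3.15 FPKM) it was the lowest. Only 1 of 6 T cell, 1 of 5 B cell and 1 of 6 dendritic cell markers passed the filter, so these 3 sums rest on low values. In DEHP library 5, Ly6g alone made up 12.62 FPKM of the neutrophil and monocyte sum and Zbtb46 1.7 FPKM of the dendritic cell sum. The part of these cell types in the interferon values was not tested. The SD on the log2 scale had a median over the 37 genes of 0.235 in DEHP and 0.281 in CMC libraries, against 0.207 in DEHP and 0.198 in CMC libraries over all genes tested.

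**Figure D4:**
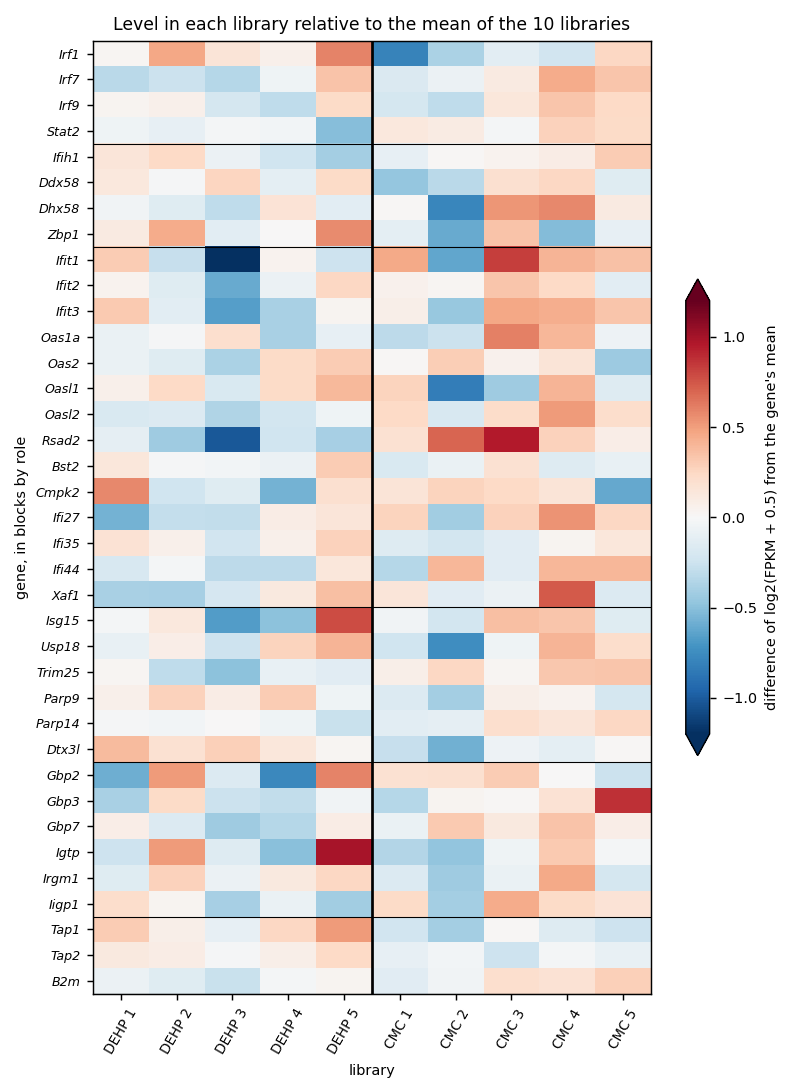
Difference of log2(FPKM + 0.5) from each gene's mean over the 10 libraries, with 1 row per gene in blocks by role and 1 column per library, DEHP libraries left of the thick line. The Rsad2 row is below its mean in all 5 DEHP libraries and above it in all 5 CMC libraries, whereas DEHP library 5 is red for Igtp and Isg15 and blue for Stat2.

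The other genes of the pathway were read from lists of 144 genes, of which 134 were in the table and 114 passed the filter. Of these 114 genes, 4 were called higher and 4 lower, 7.02% in all, against the 11.5% of all genes tested given above, and their median log2 fold change was -0.000584. The counts were 1 higher and 5 lower with median-of-ratios scaling, 2 higher and 7 lower with quantile normalization, and 2 higher and 4 lower without both CMC library 2 and DEHP library 5. When 1 library was left out they lay between 2 and 6 higher (2 without DEHP library 1, DEHP library 3 or CMC library 4, and 6 without CMC library 3) and between 3 and 5 lower. Of 9 interferon genes listed, Ifng and Ifnk were in the table, neither passed the filter, and the other 7 have no value here. Ifng was listed at 0.25 FPKM in DEHP library 2 and at 0 in the other 9 libraries, and Ifnk at 0.18 FPKM in CMC library 1 and at 0 in the other 9.

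Among receptors and STAT or IRF factors, Ifnar2, a chain of the type I interferon receptor, rose and Irf5, a factor of macrophage inflammatory signalling, fell. They were the only calls among 8 receptors and kinases (12.5%) and 13 STAT and IRF factors (7.69%). Of all genes tested, 11.5% were called, 9.12% higher and 2.4% lower. Irf5 had 3.37, 5.61, 3.48, 3.94 and 2.47 FPKM in DEHP libraries 1 to 5, against 10.47, 6.21, 7.46, 9.93 and 7.38 FPKM in CMC libraries 1 to 5. The groups did not overlap (log2 fold change -1.06, SE 0.19, limma adjusted p = 0.00219), and the call held when any of the 10 libraries was left out. Ifnar2 had 78.73, 73.14, 82.92, 69.58 and 76.99 FPKM in DEHP libraries 1 to 5, against 56.85, 63.74, 66.28, 65.36 and 64.95 FPKM in CMC libraries 1 to 5. Every DEHP library was above every CMC library, and CMC library 1 was the lowest. Ifnar2 averaged 76.3 ± 5.13 FPKM in DEHP and 63.4 ± 3.79 FPKM in CMC libraries (log2 fold change 0.26, adjusted p = 0.0333). That call was lost without DEHP library 1 or 3 (adjusted p = 0.0830 and 0.0888), without CMC library 1, 4 or 5 (adjusted p = 0.0829, 0.0565 and 0.0529) and with median-of-ratios scaling (adjusted p = 0.120). It was also lost with quantile normalization (0.241), limma lacking trend and robust variance (0.0766), the replicate block (0.0845) and without both CMC library 2 and DEHP library 5 (0.0613). The receptor chains Ifnar1 and Ifngr1 had log2 fold changes of 0.14 and 0.09 (adjusted p = 0.512 and 0.664).

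Of 35 other antiviral genes tested, 3 fell (8.57%), against 2.4% lower among all genes, and none rose, against 9.12% higher. The counts were 4 lower with median-of-ratios scaling and 5 lower with quantile normalization, 1 lower of 26 tested with a filter of 2 FPKM, and between 2 and 4 lower when 1 library was left out. In addition, 1 gene was called higher without CMC library 3, and a different gene without CMC library 5. Ifitm3, which blocks virus entry at endosomes, had 327.36, 337.54, 281.54, 356.77 and 397.33 FPKM in DEHP libraries 1 to 5, against 462.45, 387.17, 526.09, 560.56 and 645.75 FPKM in CMC libraries 1 to 5. Only DEHP library 5 and CMC library 2 overlapped (log2 fold change -0.59, SE 0.13, limma adjusted p = 0.00804). Mx2, a gene of the dynamin-like GTPase family, had 1.12, 1.21, 1.3, 1.07 and 0.92 FPKM in DEHP libraries 1 to 5, against 1.59, 1.53, 2.48, 2.44 and 3.19 FPKM in CMC libraries 1 to 5. These groups did not overlap (log2 fold change -0.73, SE 0.18, adjusted p = 0.0160). Ifit3b, the near copy of Ifit3, had 0.91, 0.35, 1.37, 0.66 and 0.8 FPKM in DEHP libraries 1 to 5, against 1.19, 1.72, 2.29, 2.31 and 1.42 FPKM in CMC libraries 1 to 5 (log2 fold change -0.81, SE 0.22, adjusted p = 0.0258). DEHP library 3 alone reached into the CMC range, and the call was lost without DEHP library 2 or 4 (adjusted p = 0.0550 and 0.0554) or CMC library 3 or 4 (adjusted p = 0.0655 and 0.0684). It was also lost without both CMC library 2 and DEHP library 5 (adjusted p = 0.0687). At a filter of 2 FPKM neither Mx2 nor Ifit3b was tested.

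Of 21 genes of MHC class I processing and the immunoproteasome, 3 rose (14.3%), against 9.12% higher among all genes, and none fell. With median-of-ratios scaling 1 gene was called higher, and with quantile normalization 2 higher and 1 lower. When 1 library was left out, 1 gene was called lower without DEHP library 2, and a different gene without CMC library 2. Psme1, an activator subunit of the proteasome, had 159.88, 161.2, 168.14, 146.44 and 223 FPKM in DEHP libraries 1 to 5, against 110.26, 106.13, 110.68, 112.85 and 124.14 FPKM in CMC libraries 1 to 5. The groups did not overlap (log2 fold change 0.59, SE 0.10, limma adjusted p = 0.00176), and the call held without any of the 10 libraries, DEHP library 5 included. H2-Q10, a secreted class I protein of hepatocytes, had 2759.88, 2188.87, 2672.11, 2134.09 and 2917.74 FPKM in DEHP libraries 1 to 5, against 1847.8, 2004.52, 1973.77, 1895.04 and 1955.07 FPKM in CMC libraries 1 to 5. Here too every DEHP library was above every CMC library, with DEHP libraries 2 and 4 nearest the CMC values. H2-Q10 averaged 2535 ± 352 FPKM in DEHP and 1935 ± 63.1 FPKM in CMC libraries (log2 fold change 0.38, adjusted p = 0.0139), and its adjusted p was 0.0657 with median-of-ratios scaling. Tapbp, which bridges the peptide transporter to class I, had 41.88, 37.98, 40.29, 34.89 and 44.43 FPKM in DEHP libraries 1 to 5, against 31.82, 33.82, 32.41, 34.15 and 31.98 FPKM in CMC libraries 1 to 5. These groups did not overlap either, although DEHP library 4 lay close to CMC library 4. Tapbp averaged 39.9 ± 3.65 FPKM in DEHP and 32.8 ± 1.08 FPKM in CMC libraries (log2 fold change 0.27, adjusted p = 0.0371). The Tapbp call was lost without DEHP library 1, 3 or 5 (adjusted p = 0.0939, 0.0787 and 0.0680), without CMC library 1, 3, 4 or 5 (adjusted p = 0.0780, 0.0721, 0.0584 and 0.0752) and with median-of-ratios scaling (adjusted p = 0.152). It was also lost with quantile normalization (0.247), limma lacking trend and robust variance (0.0733), the replicate block (0.0998) and without both CMC library 2 and DEHP library 5 (0.0718). Psmb8, an immunoproteasome subunit whose gene lies 969 bases from Tap1, had a log2 fold change of -0.25 (adjusted p = 0.255).

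Psmb9, another immunoproteasome subunit, lies 225 bases from Tap1 and was singled out after its values were seen. It had 32.49, 36.44, 28.68, 21.65 and 38.95 FPKM in DEHP libraries 1 to 5, against 15.77, 10.57, 26, 22.54 and 21.53 FPKM in CMC libraries 1 to 5. DEHP library 4 lay inside the CMC range and the other 4 DEHP libraries above it (log2 fold change 0.74, SE 0.23, limma adjusted p = 0.0684).

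**Figure D5:**
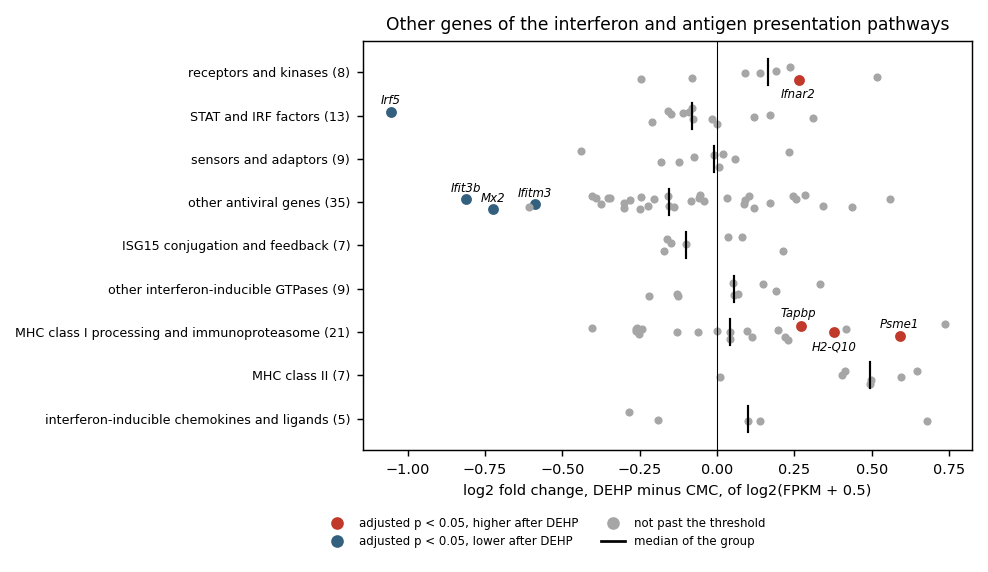
Log2 fold change, DEHP minus CMC, on the log2(FPKM + 0.5) scale of the other pathway genes that passed the filter, with the number of genes per list in brackets and the list's median as a bar. Genes called higher (red) lie in the class I and receptor lists, and genes called lower (blue) in the antiviral and transcription factor lists.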

How the data were processed

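Liver RNA libraries were made with an Illumina TruSeq kit, per the labels' protocols. The authors deposited 1 table of FPKM values per gene and library, the unit per the file headers, in which fragments are scaled by transcript length and library total. The submitters' processing notes name Cuffdiff, mm10 and GRCm38 without version or role, and the aligner, its settings and the strand are not given in the sources used here. FPKM is relative to the library total, so a fall of very abundant transcripts raises all other values.

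From the deposited FPKM, genes that reached 0.5 FPKM in 5 or more of the 10 libraries were tested as log2(FPKM + 0.5) with limma 3.58.1 in R 4.3.3, with a variance trend on intensity and robust estimation, for DEHP minus CMC, two-sided, with Benjamini-Hochberg adjustment over all 11242 genes and a threshold of 0.05. A fold change on that scale understates the change of low genes. Procedures were tested on simulated data. Because the table holds no raw counts, no count model was used. The depth per library was estimated from the steps of low values of genes with 1 transcript, using lengths of the GENCODE annotation. Of the values used, 76.3% to 82.1% per library lay within 0.2 of a whole number of steps, where evenly spread values would give 40%. Such a number is an estimate with no independent total beside it. Summed marker levels were compared with exact permutation tests over 252 regroupings. Replicate numbers come from the labels and were not treated as pairs. 

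The 37 genes, their roles and the lists of pathway genes and cell type markers were chosen with earlier results of these data known, so they are no independent support for any direction. All 37 genes are named. Values in every library are given for interferon and antigen presentation genes past the threshold, for those of the 37 with a library far from the other 4 of its group, for Irf7, Irf9, Stat2, Isg15, Ifit1 and B2m, and, chosen after their values were seen, for Irf1, Tap2, Parp9, Igtp and Psmb9. Other pathway genes are named where past the threshold, with Ifnar1, Ifngr1 and Psmb8 in any case, and some genes are not reported here. Tried as alternatives were the pseudocounts 0.1 and 1, a filter of 2 FPKM or none, median-of-ratios scaling, quantile normalization, limma without trend or robust variance, the replicate number as a block, and leaving out each library. Leaving out both CMC library 2 and DEHP library 5 was chosen after seeing the data. Gene coordinates and promoters come from RefSeq for GRCm38.p6. Python 3.11.15, pandas 2.3.3, NumPy 2.4.6, SciPy 1.17.1 and Matplotlib 3.10.9 were used.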

Additional observations from a re-analysis of the deposited data

Results flagged for a closer look

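In 8 groups of 5 libraries, the highest or lowest library lay farther from the other 4 than Dixon's 95% critical value allows. These were 5 of the 74 groups of the 37 genes and 3 of 24 groups of named pathway genes, with none among 20 groups of marker sums, where chance alone gives about 1 in 20.

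DEHP library 5 was the low value for Stat2, at 6.89 FPKM against 9.36 to 9.84 FPKM in the other 4 DEHP libraries, and for Parp14, at 2.28 FPKM against 2.73 to 2.87 FPKM. The same library was the high value for Psme1, at 223 FPKM against 146.44 to 168.14 FPKM in the other DEHP libraries. In the CMC group, Bst2 was high in library 3 at 333.65 FPKM, against 258.16 to 276.45 FPKM in the others. Xaf1 was high in CMC library 4 at 2.76 FPKM, against 1.25 to 1.67 FPKM, and Cmpk2 was low in CMC library 5 at 1.01 FPKM, against 2.07 to 2.28 FPKM. Ifnar2 was low in CMC library 1 at 56.85 FPKM, against 63.74 to 66.28 FPKM, and Ifngr1 was high in CMC library 5 at 7.12 FPKM, against 5.70 to 5.88 FPKM. Without DEHP library 5 the adjusted p of Psme1 by limma stayed under the threshold, while that of Ifnar2 was 0.0829, above the threshold, without CMC library 1.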

How the results depend on the processing

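Of the 37 genes, 2 were called higher and 2 lower. The count of higher calls was 0 with no filter, median-of-ratios scaling, quantile normalization, limma without trend or robust variance, and without both CMC library 2 and DEHP library 5. It was 0 to 2 when 1 library was left out. The count of lower calls was 1 with no filter, 1 at a filter of 2 FPKM, 1 without trend or robust variance, and 1 to 3 when 1 library was left out. The genes without overlap numbered 7 without both libraries, against 4, and 4 to 7 when 1 library was left out, where fewer values per group make overlap rarer. Over all genes tested, median-of-ratios scaling gave 639 higher and 445 lower and quantile normalization 611 higher and 546 lower, against 1025 higher and 270 lower. Leaving out 1 library gave 747 to 1011 higher and 202 to 263 lower. Both pseudocounts kept all counts of calls among the 37 genes.

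The labels do not say whether the replicate numbers pair the libraries. Same-numbered deviations correlated between -0.0722 and 0.0489. Differently numbered libraries were not correlated for comparison, so these values cannot decide on a pairing. With the replicate number as a block, 1 of the 37 genes was called higher (Irf1) and 2 lower (Rsad2 and Trim25), with 816 higher and 229 lower over all genes.

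The sign of the log2 fold change turned for Bst2 with quantile normalization (-0.00223), and for Usp18 (-0.0806) and Igtp (-0.0686) without both libraries. When 1 library was left out, the log2 fold change ranged from -0.142 to 0.0623 for Oas2, from -0.240 to 0.0559 for Cmpk2, from -0.317 to 0.0465 for Isg15 and from -0.338 to 0.00469 for Gbp2. The summed marker difference, DEHP minus CMC, then ranged from -2.77 to 0.930 FPKM for neutrophils and monocytes, from -3.61 to 2.41 FPKM for endothelial cells, which had 4.55 FPKM without both libraries, and from -0.228 to 0.928 FPKM for cholangiocytes. The cause of these turns was not tested. Low genes rest on few fragments, which limits what could be detected for them.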

Other observations

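The MHC class II list holds 3 genes of the presenting chains (H2-Aa, H2-Ab1 and H2-Eb1), the invariant chain gene Cd74, the peptide editors H2-DMa and H2-DMb1 and the protease gene Ctss. All 7 were above 0 in log2 fold change, DEHP minus CMC, with a median of 0.50 and 0.01 for Ctss, but none was called. Of all genes tested, 59.5% were above 0, with a median of 0.06. The 7 genes shared their highest library: DEHP library 2 was the highest of its group for 6 of them (85.7%), against 22.2% of all genes tested. With the replicate block, without CMC library 1 and without CMC library 2, 1 of the 7, H2-Eb1, was called higher. Under median-of-ratios scaling and quantile normalization 6 of the 7 were above 0, with medians of 0.43 and 0.45. H2-Eb1, named after its values were seen, averaged 20.4 ± 6.24 FPKM in DEHP and 12.7 ± 3.37 FPKM in CMC libraries (SD, n = 5 each, log2 fold change 0.65, limma adjusted p = 0.0688, and 0.0335 with the block). H2-Ab1 had 27.72, 49.33, 26.93, 27 and 51.99 FPKM in DEHP libraries 1 to 5, against 30.35, 25.14, 23.31, 20.76 and 17.29 FPKM in CMC libraries 1 to 5. DEHP libraries 2 and 5 were far above the rest, and these 2 libraries also had the highest Kupffer cell marker sums of the 10, 288 and 273 FPKM. The same libraries, 2 and 5, had the lowest dendritic cell marker sums of the 10, 2.45 and 1.96 FPKM. Zbtb46 alone made up 2.1 and 1.7 FPKM of these sums, and only 1 of the 6 dendritic cell markers passed the filter. Their B cell marker sums were 0.16 and 1.98 FPKM. The part of Kupffer or other cells in the class II values was not tested.

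Among the 114 other pathway genes, DEHP library 5 was the highest of its group for 31, DEHP library 2 for 34 and DEHP library 3 the lowest for 32. In the CMC group, library 2 was the lowest for 42 of the 114 genes. These are 27.2%, 29.8%, 28.1% and 36.8% of the 114 genes, in that order, against 18.1%, 22.2%, 12.0% and 17.6% of all genes tested.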
